A study of Mus musculus with 37 samples.

Results

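Mitosis and kinetochore genes are the 40 genes whose mouse Ensembl identifiers map to a fixed list of symbols, out of 51123 gene identifiers measured in 37 RNA-seq libraries of cultured mouse bone marrow and osteosarcoma cells. They encode 2 transcription factors of the late cell cycle and the kinases and phosphatases that start mitosis. Others encode the kinetochore and its checkpoint, spindle motors and the enzymes that end mitosis. All 40 were found in the table and all 40 passed the limit set for testing, a level of 1 TPM or more in 3 or more libraries of a set. In set 1, 39 of them were at 1 TPM or more in every library, and in set 2, 36 of them were. TPM is a transcript level scaled to a fixed library total and corrected for transcript length within each library, so levels can be compared between genes.

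At mitosis a dividing cell condenses its chromosomes, builds a spindle of microtubules and attaches every chromosome to it through a kinetochore, a protein plate assembled on the centromere. The spindle assembly checkpoint holds the cell until all kinetochores are attached. The anaphase promoting complex then marks securin and the mitotic cyclins for destruction and the chromosomes part. Transcripts of most of these genes are made late in the cell cycle and are low in resting cells. In bulk cultures fewer dividing cells and less RNA per cell cannot be told apart. Osteosarcoma, a bone cancer of osteoblast lineage cells, often carries mutations of the p53 gene.

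The study followed bone marrow (BM) and tumor cells of mice in which Osx1-Cre, a Cre recombinase driven by the Osterix promoter of osteoblast progenitors, deletes Trp53 alone (SKO) or Trp53 together with Wwox (DKO) and switches on a Rosa26-LSL-tdTomato reporter. Both sets hold yBM, from young mice without a tumor, BMT, marrow taken when the mouse had a tumor, and the tumor itself. Set 1 has 6 DKO yBM libraries (3 at 1.5 months and 3 at 4 months), 3 DKO BMT, 3 DKO tumor and 4 control BM libraries. Set 2 has yBM, BMT and tumor of both genotypes and control BM, with 3 libraries each. Control mice are called wild type in the methods and Cre negative in the series design, and ages outside the yBM of set 1 are not given in the labels. The methods state that tdTomato-positive cells dominated the cultures after 3 passages, and which cells of a culture carry the deletions was not measured here. The numbers of control and tumor-free mice in the methods match the control BM and DKO yBM libraries of set 1. For the other groups no source used here says that every library came from a separate mouse, so p-values there may measure technical spread. Tumor and BMT of set 1 are described in the study as paired, so these libraries may share mice. The methods count 6 tumor-bearing mice, and how these divide over the tumor and BMT libraries is not stated.

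Some libraries went against their labels or stood apart. Trp53 was at 1.35% to 36.1% of the control mean in all SKO and DKO libraries but the libraries labelled DKO BMT 2 and 3 of set 1, at 63.3% and 72.1%. Wwox was at or above the lowest control library in 5 of 6 libraries labelled DKO yBM, 2 of 3 labelled DKO BMT and 1 of 3 labelled DKO tumor in set 1. That control library, control BM 3, was itself at 32.0% of the control mean. DKO BMT 3 counts here at 39.8%, and the other libraries counted were at 85.1% or more. In all 3 libraries labelled DKO tumor in set 2 Wwox was above every control library, at 118.9% to 145.8% of the control mean. These are the libraries later said to go against their label by Wwox. Wwox was also low in SKO BMT 2 and 3, at 2.84% and 2.39%, so that contrasts of DKO with SKO rest on labels that the Wwox level does not bear out in every library. A list of 15 leukocyte markers summed to 7.12 to 2845 TPM in the SKO and DKO libraries of set 2, against 21385 to 26052 TPM in its control BM. In DKO yBM of set 2 Tyrobp, Itgam and C1qa were at 0 in every library, and Tyrobp was in SKO yBM. In set 1 the same list summed to 895 to 15253 TPM in DKO yBM, 5415 to 11082 TPM in DKO BMT and 12.9 to 3798 TPM in DKO tumor cells, against 2712 to 14692 TPM in control BM. Osteoblast markers were present in every group. Between 11001 and 13249 genes reached 1 TPM in a library, and mitochondrial genes took 5.32% to 32.5% of TPM.

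Promoters of 33 of the 40 genes were in the RefSeq table (build GRCm38.p6), as 300 bases from 250 before to 50 after the transcript start. Late cell cycle promoters are known for a cell cycle homology region, searched here as TTTGAA or TTTAAA, and for CCAAT boxes. The search covered both strands, on which TTTGAA reads TTCAAA and CCAAT reads ATTGG, and matches of the 2 kinds did not overlap in the promoters printed. A window with TTTGAA or TTTAAA was found for 24 of the 33 genes (72.7%), against 30.6% of the 27025 genes in the table. CCAAT was found for 24 genes (72.7%), against 41.1%. Both stood in 1 window for 20 genes (60.6%), against 12.2%. Neither was found for 5 genes (15.2%), against 41.8%. The promoters of Aurka, Cenpa and Cdk1 are shown because they hold both motifs and their transcripts were called in 7, 6 and 6 of the 9 comparisons with control BM. That of Mybl2 holds neither motif though it was called in 6, and that of Bub3 holds both though it was called in none. Capitals mark the matches.
Aurka (chr2:172370521-172370820, strand -): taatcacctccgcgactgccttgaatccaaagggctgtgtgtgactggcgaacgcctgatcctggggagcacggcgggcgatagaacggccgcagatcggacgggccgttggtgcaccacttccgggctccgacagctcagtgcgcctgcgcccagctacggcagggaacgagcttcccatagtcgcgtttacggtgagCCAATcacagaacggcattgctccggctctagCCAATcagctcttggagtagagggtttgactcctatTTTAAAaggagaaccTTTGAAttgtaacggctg
Cenpa (chr5:30666636-30666935, strand +): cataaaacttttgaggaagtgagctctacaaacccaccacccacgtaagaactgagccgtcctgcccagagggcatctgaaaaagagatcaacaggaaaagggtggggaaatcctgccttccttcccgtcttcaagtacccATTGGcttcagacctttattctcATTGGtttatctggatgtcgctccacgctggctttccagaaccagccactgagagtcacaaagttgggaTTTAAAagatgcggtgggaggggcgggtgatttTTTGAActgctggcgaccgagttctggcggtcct
Cdk1 (chr10:69352863-69353162, strand -): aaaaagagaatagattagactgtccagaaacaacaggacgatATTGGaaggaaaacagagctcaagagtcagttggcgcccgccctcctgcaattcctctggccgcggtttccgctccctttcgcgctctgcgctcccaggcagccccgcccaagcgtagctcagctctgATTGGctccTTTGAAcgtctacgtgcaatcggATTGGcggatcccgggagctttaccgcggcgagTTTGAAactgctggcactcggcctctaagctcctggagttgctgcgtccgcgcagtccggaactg
Mybl2 (chr2:163054385-163054684, strand +): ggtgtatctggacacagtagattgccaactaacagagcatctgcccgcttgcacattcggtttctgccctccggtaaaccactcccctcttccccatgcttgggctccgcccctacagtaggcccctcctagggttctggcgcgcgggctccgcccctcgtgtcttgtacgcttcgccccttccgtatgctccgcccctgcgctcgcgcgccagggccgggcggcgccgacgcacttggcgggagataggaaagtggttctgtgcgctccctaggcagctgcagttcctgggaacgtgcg
Bub3 (chr7:131560120-131560419, strand +): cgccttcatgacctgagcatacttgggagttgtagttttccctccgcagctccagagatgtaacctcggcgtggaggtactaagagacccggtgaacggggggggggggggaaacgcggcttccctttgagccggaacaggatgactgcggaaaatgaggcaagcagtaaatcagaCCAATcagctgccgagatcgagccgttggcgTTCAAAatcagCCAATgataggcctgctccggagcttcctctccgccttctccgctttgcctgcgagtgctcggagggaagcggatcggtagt
The first bases of the CCAAT matches lay at -51 and -19 from the start in Aurka, at -109 and -86 in Cenpa, at -208, -80 and -48 in Cdk1 and at -74 and -32 in this window of Bub3, which has a second window in the table. A match describes these letters and no bound factor was measured here.

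Averaged over the 40 genes, log2(TPM + 1) was higher in the groups carrying deletions than in control BM of the same set. In set 2 the SKO means were 4.73 ± 0.55 in yBM, 4.28 ± 0.71 in BMT and 4.23 ± 0.94 in tumor cells. DKO yBM averaged 4.96 ± 0.12, DKO BMT 4.42 ± 1.11 and DKO tumor cells 5.33 ± 0.32, against 2.87 ± 0.30 in control BM (SD, n = 3 each). In set 1 they were 4.47 ± 0.21 in DKO yBM (n = 6), 4.68 ± 0.50 in DKO BMT (n = 3) and 4.88 ± 0.47 in DKO tumor cells (n = 3), against 3.51 ± 0.82 in control BM (SD, n = 4). Every SKO and DKO library of set 2 lay above its 3 control libraries, the closest being DKO BMT 3 at 3.14 and SKO tumor 2 at 3.30, against 3.06 in the highest control library. Genes at 1 TPM or more numbered 11372 in DKO BMT 3 and 11001 in SKO tumor 2, the fewest of any library, and mitochondrial genes took 12.8% and 26.8% of their TPM. The lowest control library of set 2, at 2.52, had 12151 such genes and 32.5% mitochondrial TPM. The part of these library properties in the results was not tested. In set 1 the control libraries spread widely. Control BM 1, at 4.45, lay above 4 of the 6 DKO yBM libraries, DKO tumor 2 and DKO BMT 3, while control BM 4, at 2.62, held the lowest value of the set for 34 of the 40 genes. The highest library for most genes was a DKO tumor library in both sets, tumor 3 of set 1 for 19 genes and tumor 2 of set 2 for 24 genes.

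**Figure D1:**
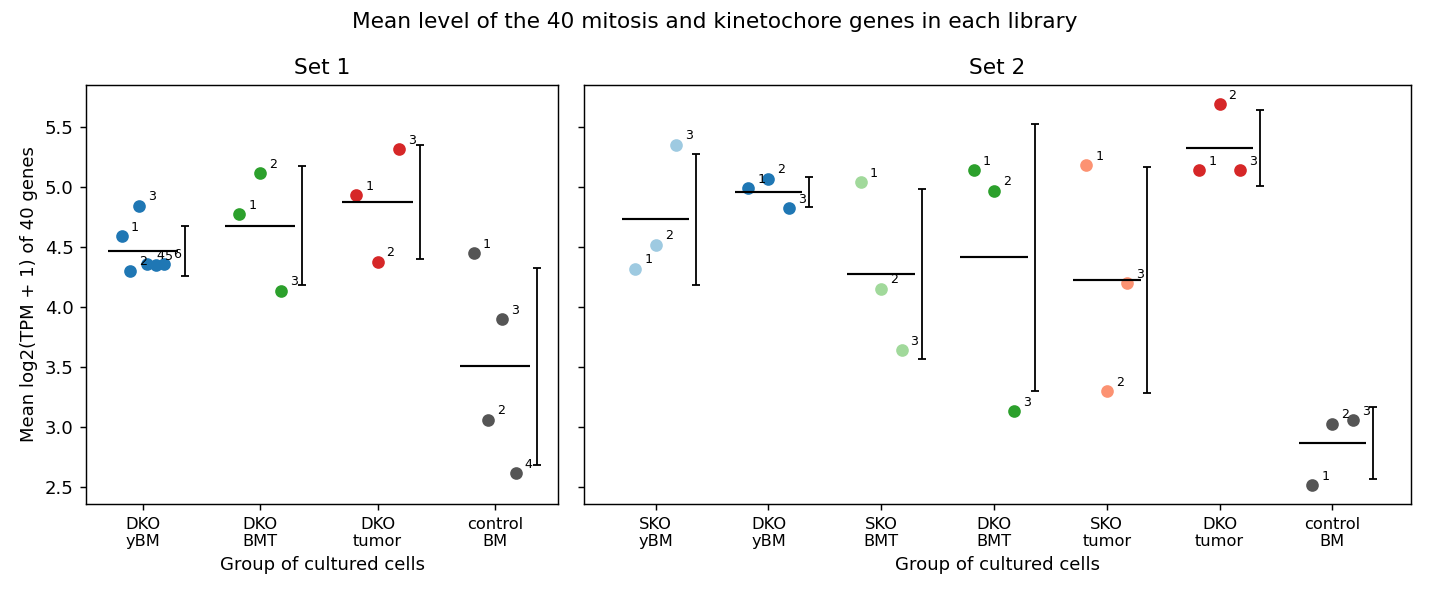
Mean log2(TPM + 1) of the 40 mitosis and kinetochore genes in each library (points, numbered by replicate), by group, in set 1 (left) and set 2 (right), with the group mean (horizontal line) and SD (bar). Control BM of set 2 sits between 2.52 and 3.06, under all 18 SKO and DKO libraries, while control BM of set 1 runs from 2.62 to 4.45 and overlaps its DKO groups.

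Each gene was tested with limma on log2(TPM + 1) over all genes of a set, and a gene is called where its Benjamini-Hochberg adjusted p is under 0.05. In set 1, 9 of the 40 genes were called in DKO yBM against control BM, where 7.81% of all 14404 genes tested were called, 3 in DKO BMT (2.35% of all genes) and 8 in DKO tumor cells (3.39%). In set 2, 26 were called in SKO yBM (13.5% of 14458 genes), 12 in SKO BMT (13.4%) and 11 in SKO tumor cells (11.6%). In the DKO groups of set 2, 26 were called in yBM (19.5%), 14 in BMT (12%) and 35 in tumor cells (17.2%). All of these 144 calls were higher than control BM and none lower. The percents of all genes count calls in both directions. In set 1 these were 241 higher and 884 lower in DKO yBM, 138 and 201 in DKO BMT and 171 and 318 in DKO tumor cells. In the SKO groups of set 2 they were 835 and 1123 in yBM, 723 and 1208 in BMT and 291 and 1383 in tumor cells. In its DKO groups they were 1350 and 1469 in yBM, 610 and 1127 in BMT and 1115 and 1371 in tumor cells. Of the 360 estimates of the 40 genes, 352 were above 0, and the 8 below it belonged to Bub3, Cenpf, Incenp and Mki67. The median log2 fold change of the 40 genes was 1.01 in DKO yBM, 1.16 in DKO BMT and 1.33 in DKO tumor cells of set 1, where the median of all genes was -0.22, -0.06 and -0.09. In the SKO groups of set 2 it was 1.99 in yBM, 1.52 in BMT and 1.50 in tumor cells, beside medians of all genes of 0.24, 0.07 and -0.11. In the DKO groups it was 2.28 in yBM, 1.51 in BMT and 2.59 in tumor cells, beside 0.07, 0.09 and 0.11. With median-ratio scaling, which moved the median of all genes by over 0.1 in DKO yBM of set 1 and SKO yBM of set 2, the 40 genes had medians of 1.26 and 1.72 there. All comparisons of a set share its control libraries.

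**Figure D2:**
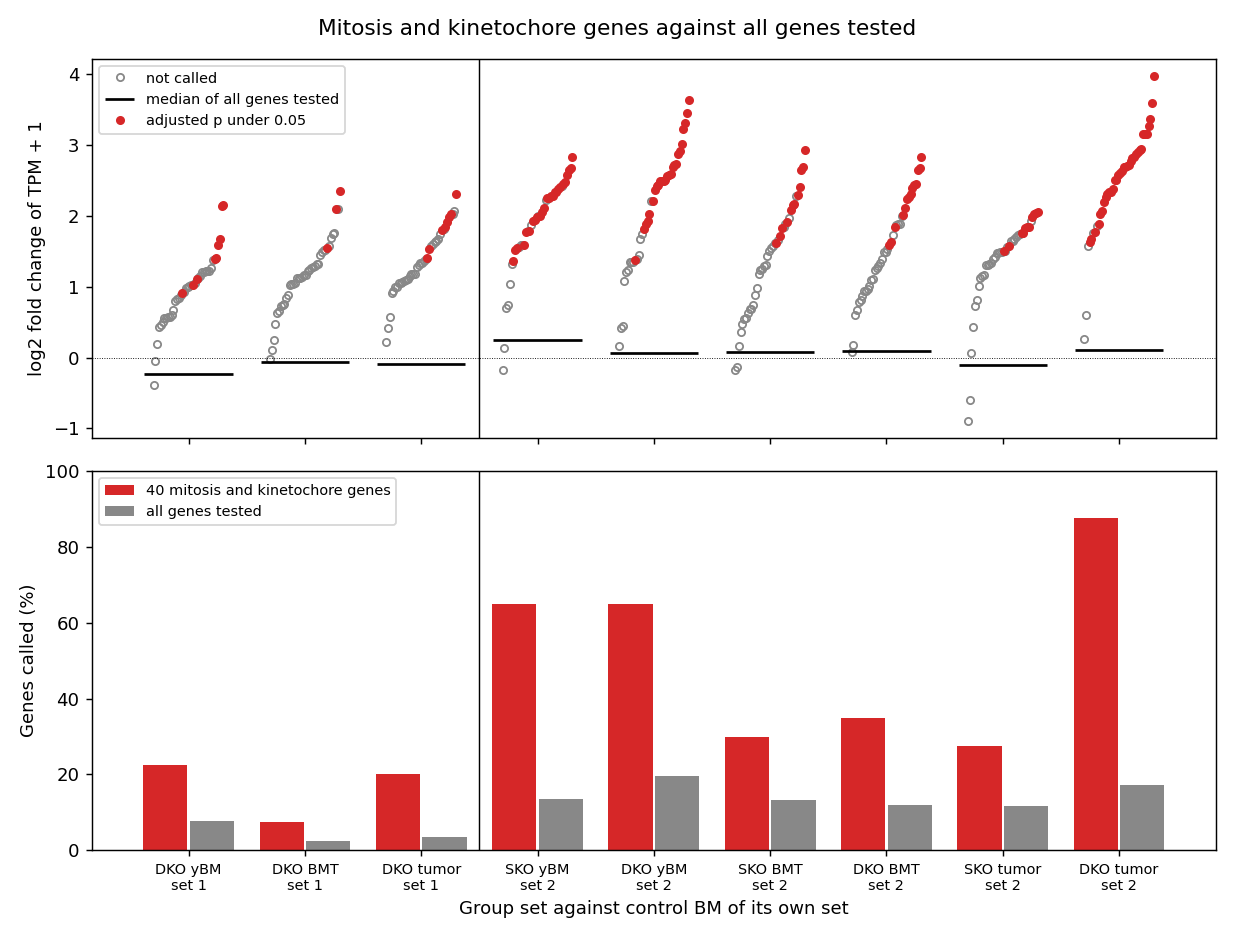
Upper panel, log2 fold change of TPM + 1 of each of the 40 genes against control BM of its own set (points, sorted within each comparison, filled red where the adjusted p is under 0.05), with the median of all genes tested as a black line. Lower panel, percent of genes called among the 40 genes (red) and among all genes tested (grey), for example 35 of 40 genes beside 17.2% of all genes in DKO tumor cells of set 2.

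Leaving out the libraries whose Wwox contradicts the label left 1 DKO yBM, 1 DKO BMT and 2 DKO tumor libraries in set 1, with the 40 genes at medians of 1.09, 1.62 and 1.35 and 0 called. Without the DKO BMT libraries whose Trp53 does, 1 library was left, with a median of 1.44 and 0 called. A lone library is assumed in this fit to vary like the other groups, and with so few libraries the lost calls say nothing about stability. Without SKO BMT 2 and 3, a setting chosen after the data were seen, SKO BMT called 11 genes. The DKO tumor count of set 1 was 0 without control BM 4, 0 without DKO tumor 3 and 21 without control BM 1. Without SKO tumor 1 the SKO tumor count was 0. The percent of all genes called is not given beside these 4 counts. In set 2 the leukocyte markers separated control BM from every other group, so a fit with their mean level as a covariate can hardly part marker level from group. With this covariate 0 of the 40 genes were called in all 6 comparisons, at median log2 fold changes of 2.17 to 3.44 for the 40 genes. No conclusion is drawn from either value. In set 1, where the marker levels of the groups overlap, 9 genes were called with the covariate in DKO yBM (9 without it), 4 in DKO BMT (3 without it) and 0 in DKO tumor cells (8 without it), at medians of 1.01, 1.18 and 1.17. The 2 libraries of set 2 with leukocyte markers well above the rest, SKO BMT 2 and DKO BMT 2 at marker means of 5.41 and 4.52, had the 40 genes at 4.16 and 4.97, against 2.52 to 3.06 in control BM. Within the other SKO and DKO libraries of set 2, whose marker mean was at most 1.05, the level of the 40 genes ran from 3.14 to 5.70. The part of the leukocytes in the differences from control BM cannot be told apart from the genotype in set 2. For some of the counts above, the percent of all genes called is given further below. Where it is not, the count alone does not separate a change of the members from a change over all genes.

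**Figure D3:**
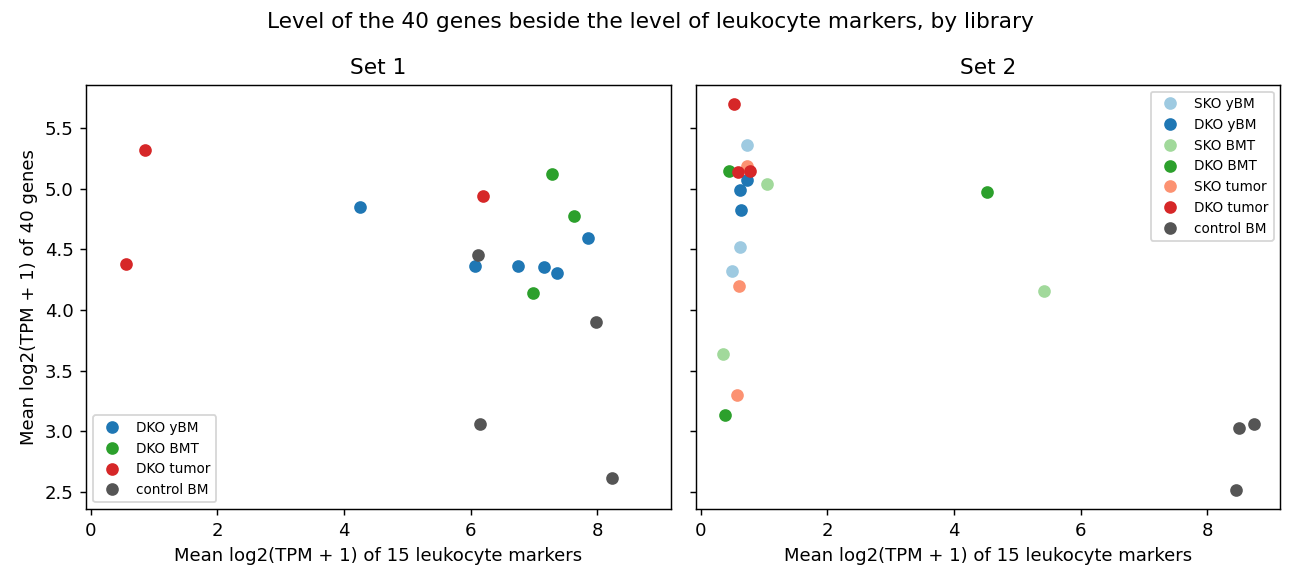
Mean log2(TPM + 1) of the 40 genes (vertical axis) beside the mean log2(TPM + 1) of 15 leukocyte markers (horizontal axis) in each library, coloured by group, for set 1 (left) and set 2 (right). In set 2 control BM stands alone at marker means of 8.46 to 8.74, while in set 1 control BM spans 6.12 to 8.24 beside DKO yBM at 4.25 to 7.85.

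The 40 genes differed among themselves in how often they were called. Aurka and Cenpn were called in 7 of the 9 comparisons, 8 genes in 6, 5 genes in 5, 5 in 4, 9 in 3, 3 in 2 and 4 in 1, and Bub3, Incenp, Mki67 and Spc25 in none. Of the 40 genes 13 were called in at least 1 comparison of set 1 (32.5%, beside 10.7% of the 13585 genes tested in both sets) and 35 in set 2 (87.5%, beside 28.4%). The 12 called in both sets were 92.3% of the set 1 calls, near the 87.5% of the 40 genes called in set 2 at all. For all genes these shares were 45.6% and 28.4%. Cdc25b was called in set 1 and not in set 2, and the difference between the sets was not tested.

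**Figure D4:**
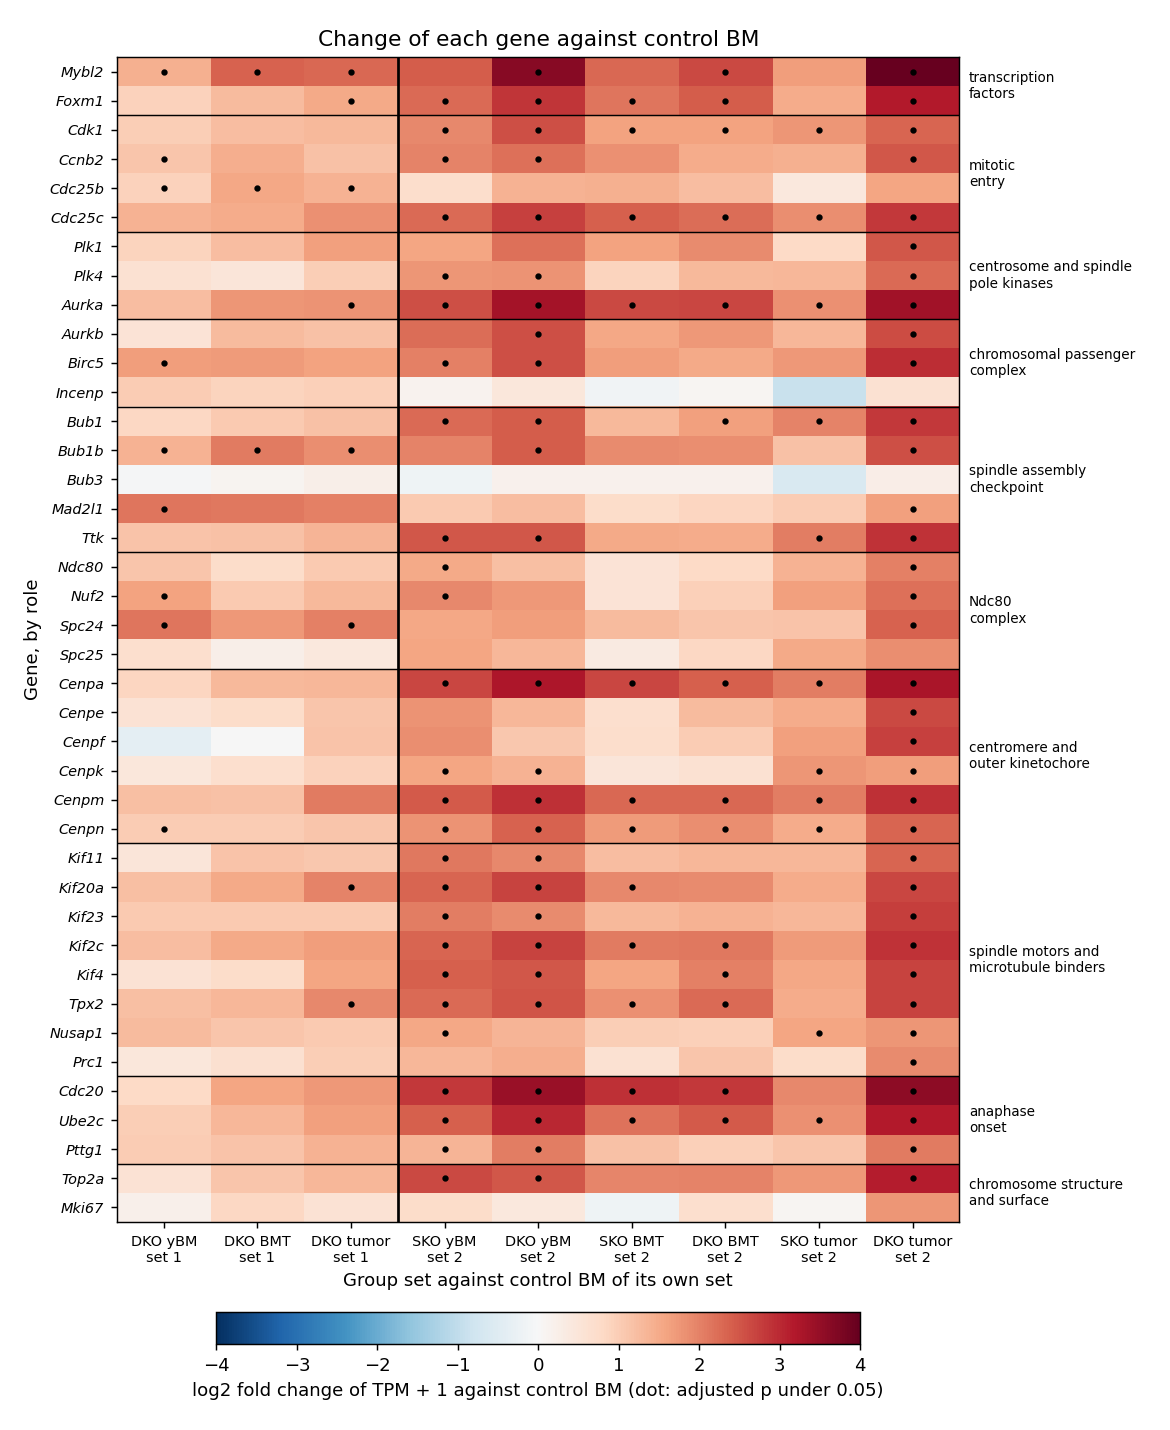
Log2 fold change of TPM + 1 against control BM for the 40 genes (rows, grouped by role) in 9 comparisons (columns, set 1 left of the thick line, set 2 right), red for higher and blue for lower, with a dot where the adjusted p is under 0.05. The DKO tumor column of set 2 holds 35 dots, and Bub3, Incenp, Mki67 and Spc25 have none in any column.

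The 2 transcription factors of the list, Mybl2 (B-Myb), which with the MuvB complex switches on late cell cycle genes, and Foxm1, a forkhead factor that acts on many of the same promoters, were each called in 6 comparisons. In SKO cultures Mybl2 was at 7.93, 9.49 and 22.4 TPM in SKO yBM, 32.7, 9.30 and 3.71 TPM in SKO BMT and 27.4, 1.38 and 5.73 TPM in SKO tumor cells. The DKO values were 26.9, 20.2 and 45.2 TPM in DKO yBM, 25.8, 16.6 and 6.47 TPM in DKO BMT and 59.8, 47.5 and 17.7 TPM in DKO tumor cells, against 0.997, 2.08 and 1.30 TPM in control BM. In set 1 Mybl2 was at 8.16 to 14.7 TPM in DKO yBM (median 11.4), 17.2, 26.3 and 24.6 TPM in DKO BMT and 30.5, 10.4 and 30.9 TPM in DKO tumor cells, against 6.88, 2.85, 4.18 and 1.73 TPM in control BM. All 12 DKO libraries of set 1 and all SKO and DKO libraries of set 2 but SKO tumor 2 lay above every control library of their set. Mybl2 rose in DKO yBM, DKO BMT and DKO tumor cells of set 1 and in DKO yBM, DKO BMT and DKO tumor cells of set 2. The log2 fold change was 3.98 ± 0.80 (SE, adjusted p = 0.00175) in DKO tumor cells of set 2. Over the 3 comparisons that did not pass Mybl2 had estimates of 1.67 to 2.43. Foxm1 was measured in set 2 at 16.8, 18.4 and 37.3 TPM in SKO yBM, 48.5, 20.7 and 8.84 TPM in SKO BMT and 32.2, 3.19 and 18.6 TPM in SKO tumor cells. In DKO cells Foxm1 was at 32.2, 33.1 and 41.1 TPM in DKO yBM, 38.5, 26.9 and 16.5 TPM in DKO BMT and 50.3, 54.8 and 29.2 TPM in DKO tumor cells, against 2.55, 4.68 and 5.03 TPM in control BM. Set 1 had Foxm1 at 11.5 to 28.1 TPM in DKO yBM (median 14.02), 20.1, 23.6 and 19.6 TPM in DKO BMT and 31.8, 15.4 and 32.5 TPM in DKO tumor cells, against 13.0, 9.56, 8.41 and 3.90 TPM in control BM. SKO tumor 2 again fell within the control values of set 2, and in set 1 the lowest DKO yBM libraries overlapped control BM 1 while DKO BMT and tumor cells did not. It rose in DKO tumor cells of set 1 and in SKO yBM, SKO BMT, DKO yBM, DKO BMT and DKO tumor cells of set 2, by 3.16 ± 0.64 (SE, adjusted p = 0.00185) on the log2 scale in DKO tumor cells of set 2. Estimates of Foxm1 were 0.93 to 1.49 in the 3 comparisons that did not pass.

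Entry into mitosis needs Cdk1, the mitotic kinase, a cyclin such as cyclin B2 (Ccnb2), and the Cdc25 phosphatases that remove the inhibitory phosphates from Cdk1. All 4 genes of this group were called in at least 1 comparison with control BM, as were 36 of the 40 genes. By set, 13 of the 40 genes were called in set 1, 35 in set 2 and 12 in both. Of the 13585 genes tested in both sets, 1448 were called in set 1 (10.7%), 3853 in set 2 (28.4%) and 660 in both. Levels of Cdc25c were 7.33, 8.80 and 18.2 TPM in SKO yBM, 17.8, 12.1 and 7.26 TPM in SKO BMT and 11.6, 4.82 and 7.79 TPM in SKO tumor cells. Cdc25c was at 14.7, 14.2 and 16.2 TPM in DKO yBM, 19.0, 12.7 and 4.34 TPM in DKO BMT and 14.8, 19.7 and 14.02 TPM in DKO tumor cells, against 0.580, 1.97 and 1.94 TPM in control BM. Cdc25c in set 1 was at 4.47 to 17.4 TPM in DKO yBM (median 7.10), 10.6, 13.1 and 5.98 TPM in DKO BMT and 14.6, 6.53 and 18.1 TPM in DKO tumor cells, against 5.85, 2.39, 3.39 and 0.862 TPM in control BM. No SKO or DKO library of set 2 overlapped control BM, and in set 1 DKO yBM 6 alone did. Higher Cdc25c passed the test in SKO yBM, SKO BMT, SKO tumor, DKO yBM, DKO BMT and DKO tumor cells of set 2. Its change in DKO tumor cells of set 2 was 2.82 ± 0.47 (SE, adjusted p = 0.000296) on the log2 scale. In the 3 comparisons that did not pass Cdc25c was at 1.38 to 1.82 on that scale. Set 2 held Cdk1 at 86.8, 87.7 and 169 TPM in SKO yBM, 146, 70.9 and 63.4 TPM in SKO BMT and 191, 74.9 and 62.3 TPM in SKO tumor cells. In libraries labelled DKO, Cdk1 was at 189, 149 and 178 TPM in DKO yBM, 118, 113 and 46.7 TPM in DKO BMT and 111, 192 and 139 TPM in DKO tumor cells, against 15.6, 32.1 and 41.9 TPM in control BM. The Cdk1 values of set 1 were 57.7 to 92.5 TPM in DKO yBM (median 68.8), 117, 85.3 and 57.5 TPM in DKO BMT and 95.1, 52.9 and 134 TPM in DKO tumor cells, against 66.4, 30.0, 40.8 and 18.1 TPM in control BM. Every SKO and DKO library of set 2 stood above the highest control library, by the least in DKO BMT 3, whereas control BM 1 of set 1 was higher than the lowest library of each DKO group. Calls of Cdk1, all higher, came in SKO yBM, SKO BMT, SKO tumor, DKO yBM, DKO BMT and DKO tumor cells of set 2. DKO yBM cells of set 2 gave a log2 fold change of 2.59 ± 0.48 (SE, adjusted p = 0.00092). The Cdk1 estimates were 1.00 to 1.30 in the 3 comparisons that did not pass. The SKO libraries had Ccnb2 at 35.4, 37.7 and 70.0 TPM in SKO yBM, 64.5, 40.2 and 26.5 TPM in SKO BMT and 45.5, 16.5 and 36.8 TPM in SKO tumor cells. DKO libraries gave 67.6, 53.5 and 41.5 TPM in DKO yBM, 83.3, 50.8 and 7.195 TPM in DKO BMT and 67.6, 71.8 and 57.4 TPM in DKO tumor cells, against 7.36, 13.1 and 12.7 TPM in control BM. In set 1 Ccnb2 was at 28.0 to 46.8 TPM in DKO yBM (median 33.8), 49.9, 48.0 and 36.2 TPM in DKO BMT and 49.3, 20.9 and 47.7 TPM in DKO tumor cells, against 23.5, 13.7, 24.1 and 7.44 TPM in control BM. DKO BMT 3 was the one library of set 2 at the control level, below every control library, and in set 1 the overlap came from DKO tumor 2. The test called Ccnb2 higher in DKO yBM cells of set 1 and in SKO yBM, DKO yBM and DKO tumor cells of set 2. Of these, DKO tumor cells of set 2 had a log2 fold change of 2.50 ± 0.62 (SE, adjusted p = 0.00929). For the 5 comparisons that did not pass Ccnb2 estimates lay at 1.18 to 1.84. Cdc25b, the other phosphatase, rose in DKO yBM, DKO BMT and DKO tumor cells of set 1 and had log2 fold changes of 0.43 to 1.58 over the 9 comparisons.

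Among the kinases of the centrosome and spindle pole are Aurka (Aurora A), which matures the centrosomes and builds the spindle, Plk4, the kinase that starts centriole duplication, and Plk1, which acts from mitotic entry to cytokinesis. In SKO cultures Aurka was at 26.2, 29.4 and 59.5 TPM in SKO yBM, 65.7, 32.3 and 24.9 TPM in SKO BMT and 55.5, 7.82 and 20.2 TPM in SKO tumor cells. The DKO values were 63.2, 50.6 and 69.0 TPM in DKO yBM, 64.3, 42.7 and 20.4 TPM in DKO BMT and 80.7, 75.7 and 40.9 TPM in DKO tumor cells, against 2.99, 6.88 and 6.51 TPM in control BM. Set 1 had Aurka at 17.3 to 35.6 TPM in DKO yBM (median 23.0), 38.2, 30.8 and 34.2 TPM in DKO BMT and 51.7, 15.8 and 52.6 TPM in DKO tumor cells, against 20.2, 9.10, 10.3 and 3.89 TPM in control BM. All 18 SKO and DKO libraries of set 2 exceeded the controls, SKO tumor 2 by the least, and control BM 1 of set 1 overlapped DKO yBM and DKO tumor cells. Aurka rose in DKO tumor cells of set 1 and in SKO yBM, SKO BMT, SKO tumor, DKO yBM, DKO BMT and DKO tumor cells of set 2. The log2 fold change was 3.37 ± 0.58 (SE, adjusted p = 0.00038) in DKO tumor cells of set 2. Over the 2 comparisons that did not pass Aurka had estimates of 1.22 to 1.76. Plk4 was measured in set 2 at 7.84, 12.01 and 21.5 TPM in SKO yBM, 8.71, 6.45 and 4.67 TPM in SKO BMT and 15.1, 7.11 and 7.05 TPM in SKO tumor cells. In DKO cells Plk4 was at 12.3, 19.1 and 9.48 TPM in DKO yBM, 10.1, 20.2 and 3.03 TPM in DKO BMT and 12.8, 25.2 and 19.0 TPM in DKO tumor cells, against 1.94, 3.87 and 3.52 TPM in control BM. Plk4 in set 1 was at 3.35 to 10.1 TPM in DKO yBM (median 8.54), 8.82, 12.1 and 2.86 TPM in DKO BMT and 8.39, 8.85 and 14.8 TPM in DKO tumor cells, against 9.43, 2.77, 4.55 and 3.86 TPM in control BM. DKO BMT 3 was the only library of set 2 inside the control range, and in set 1 all 3 DKO groups overlapped control BM. It rose in SKO yBM, DKO yBM and DKO tumor cells of set 2, by 2.27 ± 0.52 (SE, adjusted p = 0.00507) on the log2 scale in DKO tumor cells of set 2. Estimates of Plk4 were 0.47 to 1.34 in the 6 comparisons that did not pass. Levels of Plk1 were 16.1, 20.6 and 38.7 TPM in SKO yBM, 61.9, 24.8 and 8.63 TPM in SKO BMT and 37.3, 3.30 and 16.6 TPM in SKO tumor cells. Plk1 was at 33.3, 34.9 and 42.1 TPM in DKO yBM, 61.7, 47.9 and 7.84 TPM in DKO BMT and 52.3, 55.3 and 31.8 TPM in DKO tumor cells, against 5.91, 8.40 and 7.37 TPM in control BM. The Plk1 values of set 1 were 18.0 to 41.3 TPM in DKO yBM (median 23.7), 25.1, 40.7 and 35.8 TPM in DKO BMT and 85.7, 25.4 and 39.5 TPM in DKO tumor cells, against 28.3, 14.3, 14.9 and 5.18 TPM in control BM. SKO tumor 2 fell below all controls of set 2 and DKO BMT 3 among them, and every DKO group of set 1 overlapped control BM. Higher Plk1 passed the test in DKO tumor cells of set 2. Its change in DKO tumor cells of set 2 was 2.50 ± 0.77 (SE, adjusted p = 0.0321) on the log2 scale. In the 8 comparisons that did not pass Plk1 was at 0.81 to 2.20 on that scale. The Plk1 call in DKO tumor cells of set 2 was lost in 7 of 14 alternatives, at adjusted limma p-values of 0.066 to 0.295: without a filter, with the leukocyte covariate, and without control BM 1, 2 or 3 or DKO tumor 1 or 2.

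Aurora B (Aurkb), survivin (Birc5) and the scaffold Incenp make up the chromosomal passenger complex, which corrects faulty attachments at the centromere and then moves to the central spindle. Set 2 held Birc5 at 59.5, 64.6 and 125 TPM in SKO yBM, 148, 62.5 and 24.8 TPM in SKO BMT and 114, 45.2 and 52.8 TPM in SKO tumor cells. In libraries labelled DKO, Birc5 was at 136, 103 and 114 TPM in DKO yBM, 116, 88.7 and 16.8 TPM in DKO BMT and 136, 184 and 139.7 TPM in DKO tumor cells, against 15.3, 18.7 and 23.2 TPM in control BM. In set 1 Birc5 was at 56.3 to 141 TPM in DKO yBM (median 100.3), 79.5, 137 and 80.6 TPM in DKO BMT and 86.9, 54.5 and 152 TPM in DKO tumor cells, against 54.2, 17.6, 49.2 and 14.5 TPM in control BM. The DKO libraries of set 1 all exceeded the controls, DKO tumor 2 by the least, and in set 2 DKO BMT 3 alone fell among the controls. Calls of Birc5, all higher, came in DKO yBM cells of set 1 and in SKO yBM, DKO yBM and DKO tumor cells of set 2. DKO tumor cells of set 2 gave a log2 fold change of 2.95 ± 0.62 (SE, adjusted p = 0.00276). The Birc5 estimates were 1.53 to 1.73 in the 5 comparisons that did not pass. The SKO libraries had Aurkb at 17.0, 26.7 and 44.4 TPM in SKO yBM, 39.5, 16.8 and 6.52 TPM in SKO BMT and 41.1, 2.98 and 19.0 TPM in SKO tumor cells. DKO libraries gave 32.2, 36.2 and 35.8 TPM in DKO yBM, 45.4, 28.6 and 4.85 TPM in DKO BMT and 33.7, 57.0 and 23.4 TPM in DKO tumor cells, against 2.90, 5.52 and 7.61 TPM in control BM. Set 1 had Aurkb at 7.73 to 17.4 TPM in DKO yBM (median 10.7), 19.3, 20.3 and 17.0 TPM in DKO BMT and 20.4, 9.87 and 27.3 TPM in DKO tumor cells, against 10.6, 4.72, 10.7 and 4.98 TPM in control BM. SKO tumor 2, SKO BMT 3 and DKO BMT 3 lay within the control values of set 2, and in set 1 DKO BMT cells alone stood clear of control BM. The test called Aurkb higher in DKO yBM and DKO tumor cells of set 2. Of these, DKO yBM cells of set 2 had a log2 fold change of 2.57 ± 0.80 (SE, adjusted p = 0.0324). For the 7 comparisons that did not pass Aurkb estimates lay at 0.56 to 2.23. The Aurkb call in DKO yBM of set 2 was lost in 7 of 14 alternatives (adjusted limma p 0.0679 to 0.366), without a filter, with the leukocyte covariate, and without control BM 1 or 2 or DKO yBM 1, 2 or 3. In SKO cultures Incenp was at 26.2, 30.2 and 45.7 TPM in SKO yBM, 47.3, 34.2 and 12.6 TPM in SKO BMT and 48.6, 3.67 and 19.4 TPM in SKO tumor cells. The DKO values were 48.2, 47.6 and 30.9 TPM in DKO yBM, 57.3, 35.8 and 15.6 TPM in DKO BMT and 40.4, 61.8 and 39.1 TPM in DKO tumor cells, against 77.9, 21.0 and 16.4 TPM in control BM. Incenp in set 1 was at 42.3 to 102 TPM in DKO yBM (median 62.9), 34.9, 106 and 62.8 TPM in DKO BMT and 83.0, 36.9 and 86.1 TPM in DKO tumor cells, against 44.4, 23.3, 38.7 and 29.2 TPM in control BM. Control BM 1 of set 2 (the column numbered WT 1) was the highest of all 21 libraries and far from the other 2 controls, so every group of set 2 overlapped control BM, as did every group of set 1. Incenp passed the test in none of the 9 comparisons with control BM. Its log2 fold changes were -0.89 to 1.02 and its smallest adjusted p was 0.0784.

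The spindle assembly checkpoint is built by the kinases Ttk (Mps1) and Bub1, the pseudokinase Bub1b (BubR1), and Mad2l1 and Bub3, which join the complex that inhibits Cdc20. Bub1 was measured in set 2 at 9.81, 12.8 and 26.3 TPM in SKO yBM, 11.4, 4.73 and 6.29 TPM in SKO BMT and 19.8, 7.38 and 11.7 TPM in SKO tumor cells. In DKO cells Bub1 was at 17.0, 19.3 and 14.4 TPM in DKO yBM, 11.98, 16.1 and 3.75 TPM in DKO BMT and 15.2, 35.8 and 20.8 TPM in DKO tumor cells, against 1.32, 2.79 and 3.07 TPM in control BM. The Bub1 values of set 1 were 3.07 to 12.6 TPM in DKO yBM (median 9.16), 13.6, 16.3 and 3.81 TPM in DKO BMT and 7.75, 7.92 and 19.3 TPM in DKO tumor cells, against 7.49, 3.16, 6.46 and 1.64 TPM in control BM. All SKO and DKO libraries of set 2 exceeded the controls, and in set 1 the low values of DKO yBM 4 and DKO BMT 3 overlapped them. It rose in SKO yBM, SKO tumor, DKO yBM, DKO BMT and DKO tumor cells of set 2, by 2.84 ± 0.50 (SE, adjusted p = 0.000523) on the log2 scale in DKO tumor cells of set 2. Estimates of Bub1 were 0.83 to 1.29 in the 4 comparisons that did not pass. Levels of Bub1b were 17.4, 16.5 and 32.1 TPM in SKO yBM, 39.8, 19.1 and 9.55 TPM in SKO BMT and 26.4, 3.76 and 13.5 TPM in SKO tumor cells. Bub1b was at 22.9, 34.0 and 30.4 TPM in DKO yBM, 49.4, 22.5 and 6.03 TPM in DKO BMT and 39.2, 36.7 and 22.9 TPM in DKO tumor cells, against 3.08, 6.86 and 4.29 TPM in control BM. In set 1 Bub1b was at 17.1 to 35.7 TPM in DKO yBM (median 20.5), 23.4, 59.2 and 36.7 TPM in DKO BMT and 50.8, 19.7 and 30.3 TPM in DKO tumor cells, against 17.0, 5.50, 7.98 and 5.10 TPM in control BM. The 12 DKO libraries of set 1 stood above all 4 controls, DKO yBM 6 by the least, and in set 2 SKO tumor 2 and DKO BMT 3 did not. Higher Bub1b passed the test in DKO yBM, DKO BMT and DKO tumor cells of set 1 and in DKO yBM and DKO tumor cells of set 2. Its change in DKO tumor cells of set 2 was 2.58 ± 0.66 (SE, adjusted p = 0.0117) on the log2 scale. In the 4 comparisons that did not pass Bub1b was at 1.16 to 1.99 on that scale. Its call in DKO tumor cells of set 2 was lost in 2 of 14 alternatives, with the leukocyte covariate at an adjusted p of 0.333 from limma and without control BM 1 at 0.0504. Set 2 held Ttk at 10.1, 11.9 and 23.3 TPM in SKO yBM, 10.5, 5.88 and 4.78 TPM in SKO BMT and 20.2, 6.71 and 7.53 TPM in SKO tumor cells. In libraries labelled DKO, Ttk was at 15.4, 17.6 and 10.7 TPM in DKO yBM, 12.7, 17.0 and 0.811 TPM in DKO BMT and 16.6, 25.8 and 16.7 TPM in DKO tumor cells, against 0.972, 1.72 and 2.72 TPM in control BM. Set 1 had Ttk at 5.28 to 11.1 TPM in DKO yBM (median 10.6), 11.9, 13.8 and 4.68 TPM in DKO BMT and 7.30, 8.07 and 21.0 TPM in DKO tumor cells, against 7.49, 1.90, 6.30 and 1.49 TPM in control BM. DKO BMT 3 was below every control library of set 2, the only overlap there, and in set 1 every DKO group overlapped control BM. Calls of Ttk, all higher, came in SKO yBM, SKO tumor, DKO yBM and DKO tumor cells of set 2. DKO tumor cells of set 2 gave a log2 fold change of 2.90 ± 0.65 (SE, adjusted p = 0.00408). The Ttk estimates were 1.15 to 1.50 in the 5 comparisons that did not pass. Mad2l1 rose in DKO yBM cells of set 1 and in DKO tumor cells of set 2, by a log2 fold change of 2.14 ± 0.53 (SE, adjusted p = 0.0291) in DKO yBM of set 1, and its estimates were 0.74 to 2.14. Bub3 ranged over 36.7 to 46.2 TPM in SKO yBM, 35.2 to 77.04 TPM in SKO BMT, 18.1 to 50.7 TPM in SKO tumor, 44.2 to 58.5 TPM in DKO yBM, 35.9 to 66.9 TPM in DKO BMT, 43.6 to 68.8 TPM in DKO tumor, against 34.9 to 53.6 TPM in control BM. In set 1 Bub3 was at 57.5 to 79.7 TPM in DKO yBM, 62.5 to 89.2 TPM in DKO BMT, 68.5 to 111 TPM in DKO tumor, against 51.1 to 94.1 TPM in control BM. All groups overlapped control BM for this gene. Its log2 fold changes were -0.60 to 0.26, with a smallest adjusted p of 0.34.

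The Ndc80 complex, a rod of Ndc80, Nuf2, Spc24 and Spc25, is the part of the kinetochore that grips the microtubule. The SKO libraries had Spc24 at 24.0, 22.8 and 41.6 TPM in SKO yBM, 34.8, 24.8 and 13.5 TPM in SKO BMT and 32.6, 16.4 and 17.4 TPM in SKO tumor cells. DKO libraries gave 42.7, 35.0 and 19.6 TPM in DKO yBM, 42.8, 33.1 and 5.45 TPM in DKO BMT and 64.4, 45.1 and 44.4 TPM in DKO tumor cells, against 15.5, 8.64 and 5.19 TPM in control BM. Spc24 in set 1 was at 43.6 to 136 TPM in DKO yBM (median 67.5), 42.2, 87.5 and 52.8 TPM in DKO BMT and 72.3, 45.5 and 107 TPM in DKO tumor cells, against 30.1, 14.1, 20.2 and 8.68 TPM in control BM. In set 1 no DKO library overlapped the controls, while in set 2 SKO BMT 3 and DKO BMT 3 lay among them. The test called Spc24 higher in DKO yBM and DKO tumor cells of set 1 and in DKO tumor cells of set 2. Of these, DKO tumor cells of set 2 had a log2 fold change of 2.37 ± 0.58 (SE, adjusted p = 0.00896). For the 6 comparisons that did not pass Spc24 estimates lay at 1.10 to 1.75. In SKO cultures Nuf2 was at 22.6, 32.3 and 49.6 TPM in SKO yBM, 22.3, 12.3 and 6.53 TPM in SKO BMT and 42.8, 24.0 and 19.1 TPM in SKO tumor cells. The DKO values were 36.9, 38.2 and 17.2 TPM in DKO yBM, 32.2, 31.7 and 3.73 TPM in DKO BMT and 27.2, 51.0 and 46.2 TPM in DKO tumor cells, against 9.46, 7.09 and 7.62 TPM in control BM. The Nuf2 values of set 1 were 27.3 to 54.8 TPM in DKO yBM (median 48.6), 28.2, 55.7 and 15.5 TPM in DKO BMT and 22.7, 29.0 and 63.5 TPM in DKO tumor cells, against 35.9, 11.3, 17.5 and 4.57 TPM in control BM. SKO BMT 3 and DKO BMT 3 were below all controls of set 2, and control BM 1 of set 1 exceeded libraries of each DKO group. Nuf2 rose in DKO yBM cells of set 1 and in SKO yBM and DKO tumor cells of set 2. The log2 fold change was 2.19 ± 0.62 (SE, adjusted p = 0.02) in DKO tumor cells of set 2. Over the 6 comparisons that did not pass Nuf2 had estimates of 0.56 to 1.74. The Nuf2 call in DKO tumor cells of set 2 was lost in 5 of 14 alternatives (adjusted limma p 0.0516 to 0.211), with the leukocyte covariate and without control BM 2 or 3 or DKO tumor 2 or 3. Ndc80 was measured in set 2 at 12.2, 15.2 and 24.5 TPM in SKO yBM, 9.91, 6.07 and 8.15 TPM in SKO BMT and 22.9, 13.8 and 10.9 TPM in SKO tumor cells. In DKO cells Ndc80 was at 15.8, 18.0 and 7.96 TPM in DKO yBM, 10.3, 20.5 and 3.80 TPM in DKO BMT and 13.7, 34.2 and 29.4 TPM in DKO tumor cells, against 4.69, 5.48 and 5.24 TPM in control BM. In set 1 Ndc80 was at 6.70 to 22.0 TPM in DKO yBM (median 16.4), 14.4, 22.1 and 4.49 TPM in DKO BMT and 9.03, 14.1 and 23.7 TPM in DKO tumor cells, against 15.5, 1.85, 12.1 and 3.95 TPM in control BM. DKO BMT 3 was again below the controls of set 2, the only overlap in that set, and all DKO groups of set 1 overlapped control BM. It rose in SKO yBM and DKO tumor cells of set 2, by 2.03 ± 0.49 (SE, adjusted p = 0.00716) on the log2 scale in DKO tumor cells of set 2. Estimates of Ndc80 were 0.54 to 1.40 in the 7 comparisons that did not pass. Spc25 was not called in any comparison, at 17.3 to 31.5 TPM in SKO yBM, 4.72 to 21.0 TPM in SKO BMT, 16.5 to 36.7 TPM in SKO tumor, 14.2 to 28.9 TPM in DKO yBM, 2.65 to 29.2 TPM in DKO BMT, 18.6 to 37.1 TPM in DKO tumor, against 3.71 to 10.5 TPM in control BM. In set 1 Spc25 was at 20.6 to 37.5 TPM in DKO yBM, 13.7 to 28.6 TPM in DKO BMT, 16.2 to 38.6 TPM in DKO tumor, against 9.90 to 34.8 TPM in control BM. In set 2 the yBM and tumor groups of both genotypes lay above control BM, though the test was not passed. Its log2 fold changes were 0.25 to 1.86 and its smallest adjusted p was 0.0654.

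Cenpa, the histone variant that marks the centromere, Cenpn, which binds Cenpa nucleosomes, and Cenpm and Cenpk, inner kinetochore proteins, stand here beside the large outer proteins Cenpe, a kinesin, and Cenpf. Levels of Cenpn were 11.01, 10.3 and 18.4 TPM in SKO yBM, 18.9, 11.4 and 8.08 TPM in SKO BMT and 17.7, 6.70 and 8.88 TPM in SKO tumor cells. Cenpn was at 19.8, 15.5 and 24.0 TPM in DKO yBM, 19.0, 16.5 and 7.36 TPM in DKO BMT and 17.4, 24.8 and 16.4 TPM in DKO tumor cells, against 1.55, 3.46 and 4.54 TPM in control BM. Set 1 had Cenpn at 9.35 to 14.7 TPM in DKO yBM (median 11.1), 14.2, 13.0 and 7.95 TPM in DKO BMT and 14.8, 7.12 and 16.0 TPM in DKO tumor cells, against 8.45, 4.19, 6.73 and 2.60 TPM in control BM. No SKO or DKO library of set 2 overlapped control BM, and in set 1 DKO yBM did not, while DKO BMT 3 and DKO tumor 2 did. Higher Cenpn passed the test in DKO yBM cells of set 1 and in SKO yBM, SKO BMT, SKO tumor, DKO yBM, DKO BMT and DKO tumor cells of set 2. Its change in DKO yBM cells of set 2 was 2.36 ± 0.43 (SE, adjusted p = 0.000792) on the log2 scale. In the 2 comparisons that did not pass Cenpn was at 1.03 to 1.10 on that scale. Set 2 held Cenpa at 57.5, 49.2 and 92.8 TPM in SKO yBM, 120.0, 51.6 and 43.4 TPM in SKO BMT and 72.3, 31.2 and 30.0 TPM in SKO tumor cells. In libraries labelled DKO, Cenpa was at 98.7, 71.6 and 119 TPM in DKO yBM, 88.4, 64.0 and 25.8 TPM in DKO BMT and 90.9, 122 and 83.5 TPM in DKO tumor cells, against 5.17, 9.36 and 15.7 TPM in control BM. Cenpa in set 1 was at 25.3 to 46.6 TPM in DKO yBM (median 32.1), 51.8, 48.3 and 40.7 TPM in DKO BMT and 73.3, 24.1 and 62.4 TPM in DKO tumor cells, against 29.0, 11.9, 27.9 and 11.7 TPM in control BM. The 18 SKO and DKO libraries of set 2 exceeded the controls, and in set 1 DKO BMT alone was clear of them. Calls of Cenpa, all higher, came in SKO yBM, SKO BMT, SKO tumor, DKO yBM, DKO BMT and DKO tumor cells of set 2. DKO tumor cells of set 2 gave a log2 fold change of 3.27 ± 0.50 (SE, adjusted p = 0.000106). The Cenpa estimates were 0.85 to 1.34 in the 3 comparisons that did not pass. The SKO libraries had Cenpm at 17.5, 13.6 and 31.1 TPM in SKO yBM, 34.1, 21.6 and 6.97 TPM in SKO BMT and 25.2, 9.95 and 12.4 TPM in SKO tumor cells. DKO libraries gave 29.0, 23.0 and 30.9 TPM in DKO yBM, 32.7, 16.3 and 10.2 TPM in DKO BMT and 35.9, 31.6 and 18.6 TPM in DKO tumor cells, against 2.25, 2.23 and 4.07 TPM in control BM. The Cenpm values of set 1 were 6.63 to 32.4 TPM in DKO yBM (median 12.3), 21.1, 7.23 and 13.4 TPM in DKO BMT and 27.4, 20.4 and 27.5 TPM in DKO tumor cells, against 16.2, 3.68, 6.45 and 1.40 TPM in control BM. Again none of the SKO and DKO libraries of set 2 overlapped the controls, and in set 1 DKO tumor cells were clear of them. The test called Cenpm higher in SKO yBM, SKO BMT, SKO tumor, DKO yBM, DKO BMT and DKO tumor cells of set 2. Of these, DKO tumor cells of set 2 had a log2 fold change of 2.93 ± 0.52 (SE, adjusted p = 0.000517). For the 3 comparisons that did not pass Cenpm estimates lay at 1.16 to 2.07. Cenpk rose in SKO yBM, SKO tumor, DKO yBM and DKO tumor cells of set 2, and its log2 fold changes were 0.46 to 1.76. Cenpe rose in DKO tumor cells of set 2, by 2.64 ± 0.62 (SE, adjusted p = 0.0064), with estimates of 0.56 to 2.64 overall. Cenpf was at 5.21 to 16.5 TPM in SKO yBM, 0.990 to 11.3 TPM in SKO BMT, 2.29 to 12.3 TPM in SKO tumor, 2.28 to 7.47 TPM in DKO yBM, 0.488 to 8.73 TPM in DKO BMT, 12.6 to 18.8 TPM in DKO tumor, against 0.698 to 2.33 TPM in control BM. In set 1 Cenpf was at 1.65 to 5.18 TPM in DKO yBM, 1.42 to 8.74 TPM in DKO BMT, 7.26 to 13.8 TPM in DKO tumor, against 1.33 to 9.23 TPM in control BM. Only SKO yBM and DKO tumor cells of set 2 lay clear of control BM. It rose in DKO tumor cells of set 2, by 2.72 ± 0.75 (SE, adjusted p = 0.0181) on the log2 scale. That call was lost in 4 of 14 alternatives (adjusted limma p 0.0541 to 0.46), with the leukocyte covariate and without control BM 1 or DKO tumor 2 or 3.

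Spindle motors and microtubule binders include Tpx2, which activates Aurora A on the spindle, Kif2c (MCAK), which takes microtubules apart at the centromere, and Kif20a, a kinesin of cytokinesis. All 8 genes of this group were called in DKO tumor cells of set 2, as were most of the 40 genes, beside 17.2% of all genes tested. In SKO cultures Tpx2 was at 32.6, 37.1 and 70.5 TPM in SKO yBM, 38.7, 39.8 and 22.5 TPM in SKO BMT and 60.4, 9.47 and 26.9 TPM in SKO tumor cells. The DKO values were 55.4, 53.3 and 49.2 TPM in DKO yBM, 68.6, 53.6 and 23.7 TPM in DKO BMT and 45.6, 90.2 and 52.2 TPM in DKO tumor cells, against 6.69, 10.0 and 8.91 TPM in control BM. In set 1 Tpx2 was at 23.9 to 45.5 TPM in DKO yBM (median 29.6), 49.1, 39.5 and 18.4 TPM in DKO BMT and 64.2, 32.1 and 63.0 TPM in DKO tumor cells, against 30.0, 9.03, 15.4 and 5.82 TPM in control BM. SKO tumor 2 was the only library of set 2 among the controls, and in set 1 DKO tumor cells were clear of control BM. Tpx2 rose in DKO tumor cells of set 1 and in SKO yBM, SKO BMT, DKO yBM, DKO BMT and DKO tumor cells of set 2. The log2 fold change was 2.69 ± 0.52 (SE, adjusted p = 0.00122) in DKO tumor cells of set 2. Over the 3 comparisons that did not pass Tpx2 had estimates of 1.21 to 1.47. Kif2c was measured in set 2 at 13.6, 14.99 and 28.5 TPM in SKO yBM, 26.4, 14.7 and 8.59 TPM in SKO BMT and 25.8, 3.77 and 13.4 TPM in SKO tumor cells. In DKO cells Kif2c was at 26.0, 23.1 and 21.5 TPM in DKO yBM, 29.8, 21.8 and 5.22 TPM in DKO BMT and 24.1, 35.8 and 22.0 TPM in DKO tumor cells, against 2.12, 3.50 and 2.84 TPM in control BM. Set 1 had Kif2c at 10.2 to 20.5 TPM in DKO yBM (median 13.3), 17.7, 19.0 and 14.3 TPM in DKO BMT and 31.0, 8.85 and 23.5 TPM in DKO tumor cells, against 12.9, 4.14, 6.03 and 1.98 TPM in control BM. Every SKO and DKO library of set 2 exceeded the controls, SKO tumor 2 by the least, and in set 1 DKO BMT cells were clear of control BM. It rose in SKO yBM, SKO BMT, DKO yBM, DKO BMT and DKO tumor cells of set 2, by 2.88 ± 0.59 (SE, adjusted p = 0.00231) on the log2 scale in DKO tumor cells of set 2. Estimates of Kif2c were 1.22 to 1.70 in the 4 comparisons that did not pass. Levels of Kif20a were 41.7, 45.4 and 94.5 TPM in SKO yBM, 65.5, 36.8 and 30.2 TPM in SKO BMT and 63.8, 11.4 and 39.8 TPM in SKO tumor cells. Kif20a was at 73.3, 72.1 and 75.9 TPM in DKO yBM, 96.3, 53.0 and 13.0 TPM in DKO BMT and 53.8, 118 and 59.4 TPM in DKO tumor cells, against 9.93, 9.67 and 11.7 TPM in control BM. Kif20a in set 1 was at 25.7 to 59.4 TPM in DKO yBM (median 30.2), 49.6, 50.4 and 32.4 TPM in DKO BMT and 86.2, 32.7 and 76.3 TPM in DKO tumor cells, against 31.7, 15.7, 13.9 and 5.97 TPM in control BM. SKO tumor 2 overlapped the controls of set 2, and in set 1 DKO BMT and DKO tumor cells stood narrowly above control BM 1. Higher Kif20a passed the test in DKO tumor cells of set 1 and in SKO yBM, SKO BMT, DKO yBM and DKO tumor cells of set 2. Its change in DKO yBM cells of set 2 was 2.71 ± 0.62 (SE, adjusted p = 0.00507) on the log2 scale. In the 4 comparisons that did not pass Kif20a was at 1.21 to 1.88 on that scale. Kif4, a motor on chromosome arms, rose in SKO yBM, DKO yBM, DKO BMT and DKO tumor cells of set 2. Kif23, a motor of the central spindle, Kif11, which pushes the spindle poles apart, and Nusap1, which binds spindle microtubules, were each called in 3 comparisons. Their log2 fold changes over the 9 comparisons were 1.04 to 2.77 for Kif23, 0.50 to 2.31 for Kif11 and 0.97 to 1.77 for Nusap1, beside 0.57 to 2.70 for Kif4. Prc1, which bundles the central spindle, was at 19.1 to 42.4 TPM in SKO yBM, 10.9 to 21.2 TPM in SKO BMT, 6.86 to 38.5 TPM in SKO tumor, 27.7 to 29.9 TPM in DKO yBM, 7.32 to 51.5 TPM in DKO BMT, 26.7 to 58.7 TPM in DKO tumor, against 8.27 to 11.003 TPM in control BM. In set 1 Prc1 was at 14.8 to 25.8 TPM in DKO yBM, 9.79 to 42.4 TPM in DKO BMT, 27.0 to 36.2 TPM in DKO tumor, against 6.37 to 40.4 TPM in control BM. The yBM groups and DKO tumor cells of set 2 were clear of control BM, and Prc1 rose in DKO tumor cells of set 2, by 1.89 ± 0.59 (SE, adjusted p = 0.0341). The Prc1 call in DKO tumor cells was lost in 7 of 14 alternatives (adjusted limma p 0.0646 to 0.159), without a filter, with the leukocyte covariate, and without control BM 1, 2 or 3 or DKO tumor 2 or 3.

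Anaphase starts when the anaphase promoting complex, with its activator Cdc20 and the ubiquitin-conjugating enzyme Ube2c, destroys securin (Pttg1). Set 2 held Ube2c at 73.7, 82.8 and 158 TPM in SKO yBM, 169, 54.3 and 67.0 TPM in SKO BMT and 168, 30.8 and 59.2 TPM in SKO tumor cells. In libraries labelled DKO, Ube2c was at 141, 126 and 205 TPM in DKO yBM, 164, 111 and 61.8 TPM in DKO BMT and 169, 218 and 135 TPM in DKO tumor cells, against 11.3, 22.3 and 23.7 TPM in control BM. The Ube2c values of set 1 were 51.2 to 84.6 TPM in DKO yBM (median 62.9), 84.7, 92.0 and 67.8 TPM in DKO BMT and 129, 53.7 and 145 TPM in DKO tumor cells, against 78.2, 23.6, 41.2 and 13.2 TPM in control BM. All SKO and DKO libraries of set 2 exceeded the controls, SKO tumor 2 by the least, and control BM 1 of set 1 overlapped every DKO group. Calls of Ube2c, all higher, came in SKO yBM, SKO BMT, SKO tumor, DKO yBM, DKO BMT and DKO tumor cells of set 2. DKO tumor cells of set 2 gave a log2 fold change of 3.16 ± 0.55 (SE, adjusted p = 0.000439). The Ube2c estimates were 0.99 to 1.63 in the 3 comparisons that did not pass. The SKO libraries had Cdc20 at 43.4, 51.2 and 90.3 TPM in SKO yBM, 138, 57.6 and 30.9 TPM in SKO BMT and 78.6, 9.44 and 37.3 TPM in SKO tumor cells. DKO libraries gave 94.2, 86.3 and 90.1 TPM in DKO yBM, 108, 64.0 and 28.6 TPM in DKO BMT and 122, 128 and 63.5 TPM in DKO tumor cells, against 3.67, 10.0 and 10.3 TPM in control BM. In set 1 Cdc20 was at 12.6 to 42.1 TPM in DKO yBM (median 22.2), 57.4, 34.1 and 30.6 TPM in DKO BMT and 79.5, 19.5 and 55.3 TPM in DKO tumor cells, against 27.8, 13.5, 12.6 and 4.83 TPM in control BM. SKO tumor 2 fell among the controls of set 2, and DKO BMT was the only group of set 1 clear of control BM. The test called Cdc20 higher in SKO yBM, SKO BMT, DKO yBM, DKO BMT and DKO tumor cells of set 2. Of these, DKO tumor cells of set 2 had a log2 fold change of 3.59 ± 0.66 (SE, adjusted p = 0.000754). For the 4 comparisons that did not pass Cdc20 estimates lay at 0.80 to 1.92. In SKO cultures Pttg1 was at 50.9, 45.5 and 91.2 TPM in SKO yBM, 58.4, 47.4 and 53.1 TPM in SKO BMT and 66.8, 41.8 and 45.3 TPM in SKO tumor cells. The DKO values were 114, 88.4 and 87.3 TPM in DKO yBM, 54.5, 56.2 and 28.5 TPM in DKO BMT and 98.0, 107 and 89.7 TPM in DKO tumor cells, against 9.73, 32.0 and 36.2 TPM in control BM. Set 1 had Pttg1 at 27.9 to 54.3 TPM in DKO yBM (median 39.8), 60.2, 27.7 and 47.2 TPM in DKO BMT and 82.5, 26.0 and 64.0 TPM in DKO tumor cells, against 35.0, 13.5, 23.5 and 11.8 TPM in control BM. DKO BMT 3 was the only overlap in set 2, and all DKO groups of set 1 overlapped control BM. Pttg1 rose in SKO yBM, DKO yBM and DKO tumor cells of set 2. The log2 fold change was 2.07 ± 0.40 (SE, adjusted p = 0.00143) in DKO tumor cells of set 2. Over the 6 comparisons that did not pass Pttg1 had estimates of 0.94 to 1.39.

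Top2a untangles sister chromosomes and Mki67, the source of the Ki-67 antigen used to count dividing cells, coats mitotic chromosomes. Top2a was measured in set 2 at 55.0, 76.3 and 126 TPM in SKO yBM, 75.6, 41.7 and 40.4 TPM in SKO BMT and 112, 12.01 and 56.9 TPM in SKO tumor cells. In DKO cells Top2a was at 75.5, 94.7 and 53.5 TPM in DKO yBM, 96.8, 84.9 and 16.1 TPM in DKO BMT and 85.7, 169.9 and 106 TPM in DKO tumor cells, against 7.62, 13.3 and 17.4 TPM in control BM. Top2a in set 1 was at 25.8 to 41.6 TPM in DKO yBM (median 34.8), 74.1, 82.1 and 21.0 TPM in DKO BMT and 49.8, 42.5 and 94.9 TPM in DKO tumor cells, against 46.4, 13.9, 38.0 and 10.4 TPM in control BM. SKO tumor 2 and DKO BMT 3 lay among the controls of set 2, and control BM 1 of set 1 overlapped every DKO group. It rose in SKO yBM, DKO yBM and DKO tumor cells of set 2, by 3.15 ± 0.68 (SE, adjusted p = 0.00339) on the log2 scale in DKO tumor cells of set 2. Estimates of Top2a were 0.58 to 1.99 in the 6 comparisons that did not pass. Levels of Mki67 were 5.94, 10.7 and 17.4 TPM in SKO yBM, 15.2, 3.64 and 1.93 TPM in SKO BMT and 14.96, 1.40 and 8.71 TPM in SKO tumor cells. Mki67 was at 6.77, 15.1 and 5.15 TPM in DKO yBM, 21.2, 22.1 and 1.55 TPM in DKO BMT and 18.3, 30.8 and 19.1 TPM in DKO tumor cells, against 6.53, 5.69 and 5.39 TPM in control BM. The Mki67 values of set 1 were 10.3 to 14.2 TPM in DKO yBM (median 12.8), 15.8, 56.0 and 8.64 TPM in DKO BMT and 9.95, 20.3 and 22.0 TPM in DKO tumor cells, against 22.5, 5.20, 19.9 and 5.23 TPM in control BM. DKO tumor cells of set 2 were the only group clear of control BM, and DKO yBM 3, SKO BMT 2 and 3, SKO tumor 2 and DKO BMT 3 were below all controls of that set. Mki67 passed the test in none of the 9 comparisons with control BM. Its log2 fold changes were -0.18 to 1.75 and its smallest adjusted p was 0.15.

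**Figure D5:**
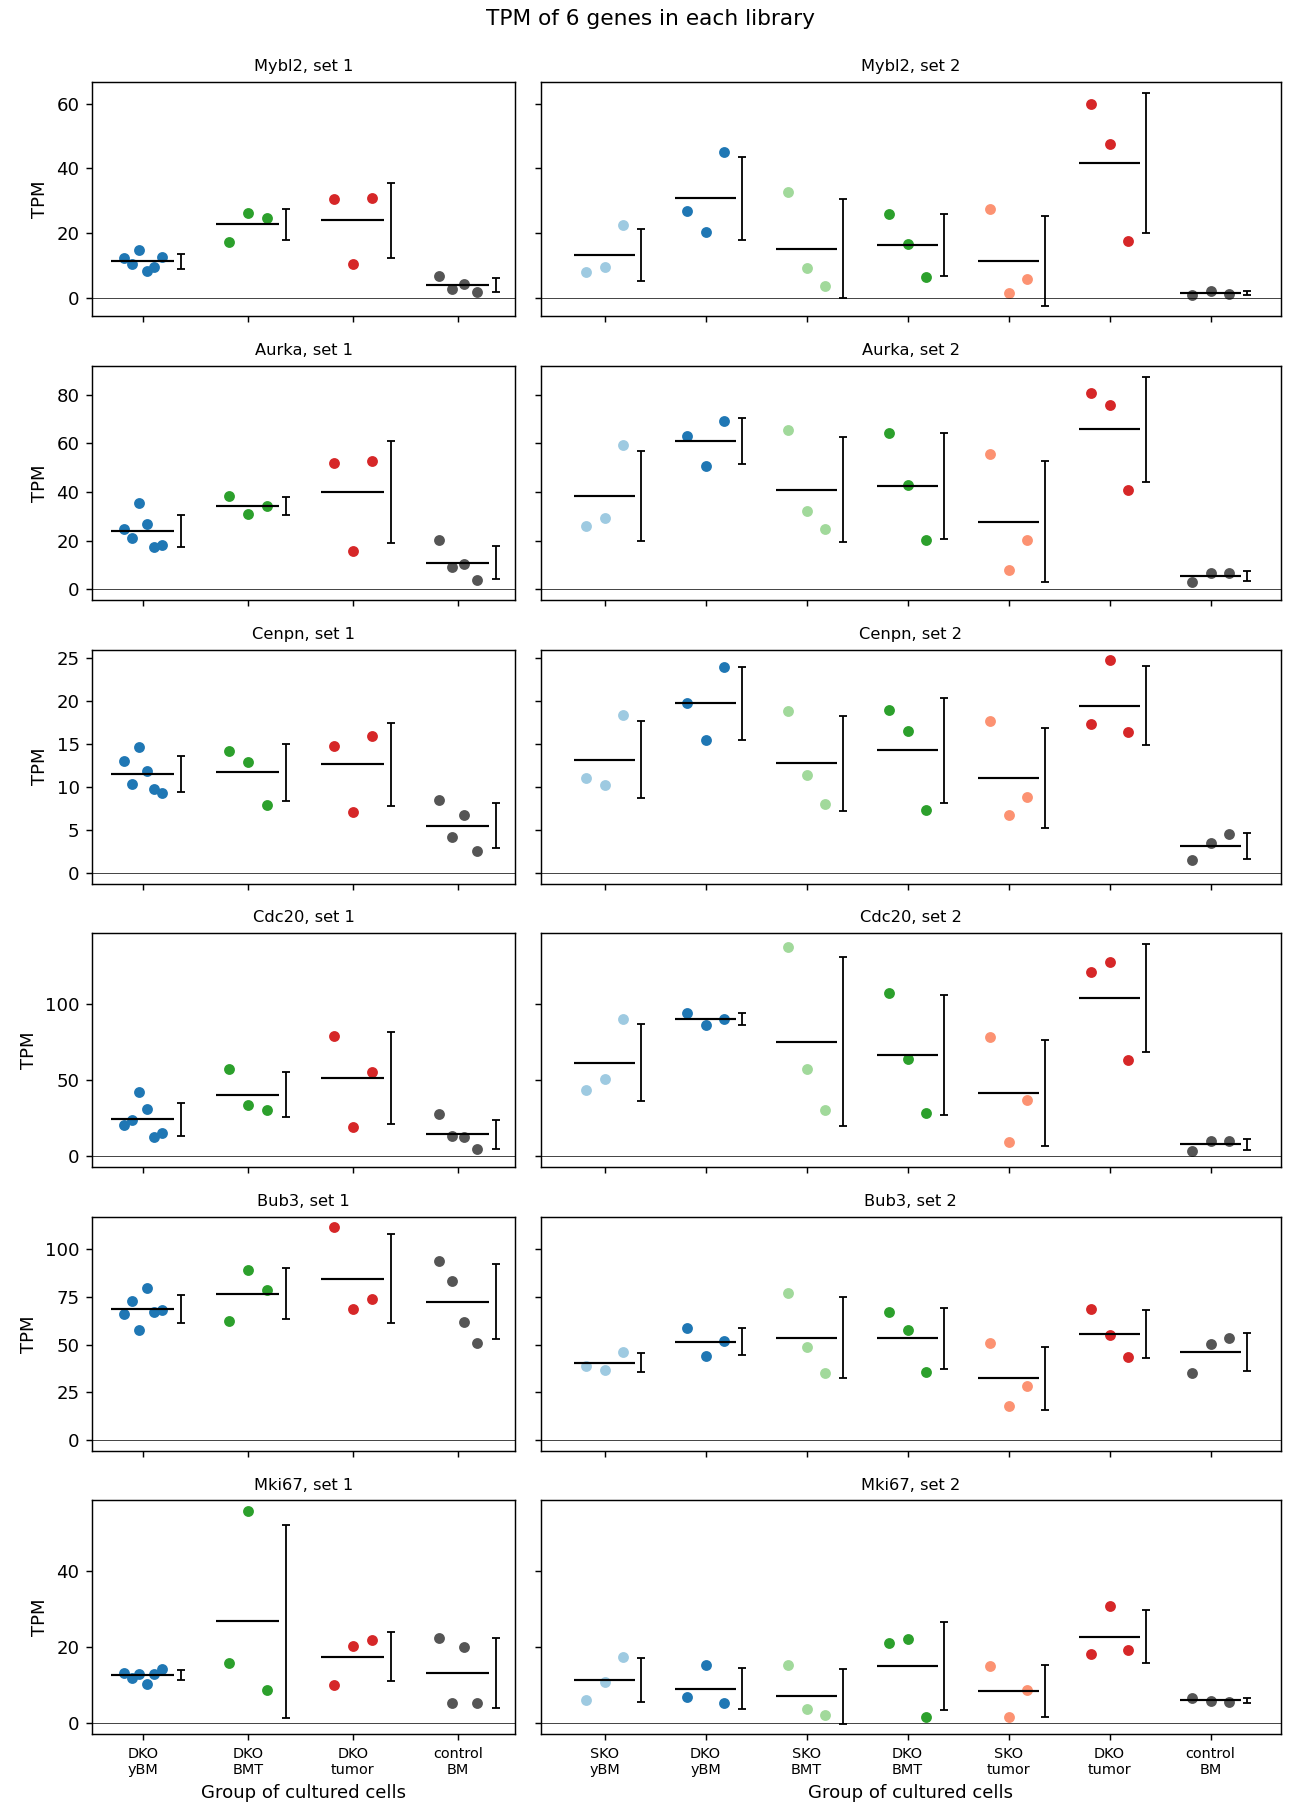
TPM of Mybl2, Aurka, Cenpn, Cdc20, Bub3 and Mki67 in each library (points) by group, set 1 left and set 2 right, with the group mean (line) and SD (bar). Aurka of set 2 reaches 40.9 to 80.7 TPM in DKO tumor cells against at most 6.88 TPM in control BM, while Bub3 and Mki67 overlap control BM in nearly every group.

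A further 120 mitotic genes were listed by role, of which 119 matched the table and were tested in both sets. In set 1, 16 rose and 0 fell in DKO yBM (13.4% called, beside 7.81% of all genes). In DKO BMT 3 rose and 0 fell, 2.52% called beside 2.35% of all genes, near the background for calls of either direction. Of all genes 138 rose and 201 fell there. In DKO tumor cells 12 rose and 1 fell (10.9% beside 3.39%). In the SKO groups of set 2, 44 were higher and 3 lower in yBM (39.5% called, beside 13.5% of all genes), 21 higher and 2 lower in BMT (19.3% beside 13.4%) and 16 higher and 3 lower in tumor cells (16.0% beside 11.6%). In the DKO groups, 57 were higher and 3 lower in yBM (50.4% beside 19.5%), 24 higher and 2 lower in BMT (21.8% beside 12%) and 70 higher and 3 lower in tumor cells (61.3% beside 17.2%), all by the same test. Their median log2 fold change was 0.55 to 0.79 in set 1 and 0.87 to 1.68 in set 2, lower than that of the 40 genes in each comparison. The smallest p-values of set 1 belonged to Cenps, a centromere protein, at 1.58 ± 0.33 (SE, adjusted p = 0.0186) in DKO yBM, and to Trip13, which disassembles the checkpoint complex, at 1.56 ± 0.33 (SE, adjusted p = 0.0188). In set 2 they belonged to Ccnb1 (cyclin B1), at 3.87 ± 0.59 (SE, adjusted p = 0.000121) in DKO yBM, and to Cenph, an inner kinetochore protein, at 2.50 ± 0.43 (SE, adjusted p = 0.000414) in DKO tumor cells. Among 28 genes of the spindle and cytokinesis 24 rose in DKO tumor cells of set 2, among 16 of the outer kinetochore 11 rose and among 17 of the anaphase promoting complex 3 rose. The last is 17.6%, near the 17.2% of all genes called there in either direction. That background holds 1115 genes that rose and 1371 that fell. The genes that fell were singled out after their values were seen. Rbl2 (p130), a pocket protein that with the MuvB core represses cell cycle genes in resting cells, fell in all 6 comparisons of set 2, by 1.14 to 1.79 on the log2 scale, and in DKO tumor cells of set 1, by 1.32. Cenpx fell in all 6 comparisons of set 2, while in set 1 it was not called, at 0.62 in DKO yBM, 0.37 in DKO BMT and -0.13 in DKO tumor cells. Lin37, a MuvB subunit, fell in SKO yBM, DKO yBM and SKO tumor cells, and Ensa fell in DKO tumor cells.

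Comparisons without control BM asked whether the level differed between genotypes and between stages. No member was called in any of these 9 comparisons. DKO yBM against SKO yBM called 0 of the 40 genes (0.0207% of all genes) with a median log2 fold change of 0.28, and DKO BMT against SKO BMT called 0 (0% of all genes) with a median of 0.11. In either, 0 of the 40 genes had an unadjusted limma p under 0.05, beside 2.98% and 2.61% of all genes. DKO tumor against SKO tumor also called 0 (0% of all genes), with 39 of 40 estimates above 0, a median of 1.15 and 12 genes at an unadjusted limma p under 0.05. Of all genes 68.6% had an estimate above 0 there and 8.39% had such a p. Mybl2 had the smallest p there, at a log2 fold change of 2.31 ± 0.80 (SE, adjusted p = 0.59), with a 95% interval of 0.63 to 3.98 from limma. Its 3 values in DKO tumor cells, 59.8, 47.5 and 17.7 TPM, overlapped 27.4, 1.38 and 5.73 TPM in SKO tumor cells. The median of all genes was 0.25 in that comparison, and all 3 DKO tumor libraries have Wwox at or above the control mean.

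Between stages, SKO tumor against SKO yBM called 0 of the 40 genes (0% of all genes) at a median of -0.49, beside a median of all genes of -0.34. There 0 of the 40 genes had an unadjusted limma p under 0.05, beside 6.63% of all genes. DKO tumor against DKO yBM called 0 in set 2 (0.104%) at a median of 0.29 and 0 in set 1 (0.132%) at a median of 0.45. In set 2, 1 of the 40 genes was at an unadjusted limma p under 0.05, beside 5.06% of all genes. In set 1, 3 of the 40 genes were, beside 15.6% of all genes, so neither count exceeded the share of all genes. Cenpf, the gene of the 40 with the smallest p in both, had log2 fold changes of 1.64 ± 0.75 (SE, adjusted p = 0.95) in set 2 and 1.53 ± 0.52 (SE, adjusted p = 0.2) in set 1. In set 1 Cenpf was at 7.26, 9.09 and 13.8 TPM in DKO tumor cells, against 3.14, 1.65, 3.61, 1.92, 1.82 and 5.18 TPM in DKO yBM. These values did not overlap, but Cenpf was singled out by its p-value. The share of all genes without overlap is not given. In set 2 Cenpf was at 12.6, 16.5 and 18.8 TPM in DKO tumor cells, against 2.28, 7.47 and 4.62 TPM in DKO yBM. The same limit holds there, and no rise of Cenpf is concluded from either set. DKO tumor against DKO BMT of set 1 called 0 (0.257%) at a median of 0.17, with 0 genes at an unadjusted limma p under 0.05 (12.9% of all genes). With the replicate number as a block, for tumor and marrow that the study describes as paired, 0 of the 40 genes were called as well. The difference of tumor from yBM was itself set against genotype, and DKO minus SKO called 0 of the 40 genes (0.0138%), with a median of 0.86 beside 0.37 for all genes. Of the 40 genes 0 had an unadjusted limma p under 0.05 there, beside 3.35% of all genes.

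Age was compared within the DKO yBM libraries of set 1. At 4 months against 1.5 months 0 of the 40 genes were called (0.00694% of all genes), 34 of 40 estimates were below 0 and 6 above it, where 31.9% of all genes were above 0, and the median was -0.25, beside -0.11 for all genes. The estimates ran from -0.57 to 0.19, with 3 libraries at each age, and 0 of the 40 genes had an unadjusted limma p under 0.05, beside 1.08% of all genes.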

How the data were processed

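RNA was extracted from cultured cells with TRI reagent and sequenced on an Illumina NextSeq from KAPA stranded mRNA libraries. Per the submitters' processing notes, FastQC, Trim Galore 0.6.1, Salmon, DESeq2 and build mm39 were used, in roles not given there. The deposited table holds TPM values that the authors made per gene identifier, and each library sums to the same total by construction, so sequencing depth is unknown and the counting error behind a value cannot be given. The table gives 51123 Ensembl identifiers, of which 48246 had a symbol in the reference tables. In set 2 the names of the control columns show the group but not which sample.

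Levels were put on the scale log2(TPM + 1), on which the change of low genes is understated. Genes at 1 TPM or more in at least 3 libraries of a set were kept, 14404 in set 1 and 14458 in set 2. limma 3.58.1 in R 4.3.3 was fitted per set over all its groups, with a mean-variance trend and Benjamini-Hochberg adjustment over all genes tested, and an adjusted p under 0.05 was called. The 2 sets were never tested against each other. The script was tested on simulated data. Members, roles and lists were chosen with earlier results of these data known. Values in every library are given for the 3 members of each role group called most often against control BM, ties going to the smaller p, ranges for the member of each group with the largest minimum p, and names for the 2 other mitotic genes with the smallest p in each set.

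Alternatives of the scale were a pseudocount of 0.1, no filter on low values, median-ratio scaling, quantile normalization and TPM rescaled without mitochondrial genes. Alternatives of the fit were the compared groups alone, a replicate block, the leukocyte marker level as a covariate and no mean-variance trend. Libraries were also left out 1 at a time, and where Trp53 or Wwox goes against the label. Results without mitochondrial genes and without the trend enter the totals of alternatives and are not given singly. Deviations of same-numbered DKO BMT and SKO BMT libraries of set 2 correlated at 0.293, 0.291 and 0.381, and each matched its own number best. These libraries are labelled as separate genotypes, but Wwox was low in some SKO BMT libraries too, and the labels name no animals. Whether same-numbered BMT libraries of set 2 share an animal or a genotype was not tested. Tumor and BMT of set 1 are described in the study as paired. Their same-numbered libraries correlated at 0.0664, 0.285 and -0.0907, and the labels do not say that a shared number is a shared mouse. Every other pair of groups compared that share numbers had at least 1 correlation under 0.1. Promoters came from RefSeq on GRCm38.p6, which is not the build of the files, so no coordinate was taken from one to the other. No 2 libraries were duplicates, the highest correlation being 0.972.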

Additional observations from a re-analysis of the deposited data

Results flagged for a closer look

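In 2 of 64 groups of 4 or 6 libraries tested with Dixon's criterion, 1 library lay far from the others, where chance gives about 1 in 20. Bub1 in DKO yBM of set 1 was at 3.07 TPM in replicate 4, a library of 4 months, while the other 5 ran from 8.24 to 12.6 TPM, a gap of 0.678 of the range, past the limit for 6 libraries. Plk4 was at 3.35 TPM in the same library, beside 7.67 to 10.1 TPM in the other 5, a gap of 0.735 of the range. Without this library 4 of the 40 genes were called in DKO yBM against control BM of set 1, and 9 with it (7.81% of all genes). The percent of all genes called without it is not given.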

How the results depend on the processing

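The 32 genes named with values or ranges were re-estimated in 454 alternatives, each at the comparison with its smallest adjusted p. All 454 kept their sign. Of the 392 alternatives of the 28 genes called there 54 lost the call, and of the 62 of the other 4 genes 7 gained one. No member was called lower in any alternative, and in the comparisons without control BM all 147 alternatives called 0 members. Of 287 counts of called members 220 stayed within 1.5 times and 67 did not. The cause was not tested for any of them. Depth is unknown, so it sets no stated limit on low genes.

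In this paragraph the percent of all genes called in each alternative stands beside its count of members. Median-ratio scaling called 19 of 40 genes in DKO yBM (9.65%, against 9 in the report), 8 in DKO BMT (4.46%, against 3) and 14 in DKO tumor cells (4.77%, against 8) of set 1, and in set 2 21 in SKO BMT (20.2%, against 12) and 28 in SKO tumor cells (16.1%, against 11). Quantile normalization called 18 (6.76%), 11 (5.09%) and 20 (6.09%) in the same groups of set 1, and in set 2 23 in SKO BMT (23.8%), 28 in DKO BMT (21.6%, against 14) and 33 in SKO tumor cells (19%). Without a filter on low values 3 were called in DKO yBM (2.57%) and 2 in DKO tumor cells (0.593%) of set 1 and 7 in SKO tumor cells (6.78%). Fitting the compared groups alone, 0 were called in DKO BMT (0.319%) and DKO tumor cells (0.146%) of set 1 and in SKO tumor cells (5.42%), 6 in SKO BMT (6.96%) and 5 in DKO BMT (5.51%) of set 2. With leukocyte level as a covariate 0 were called in DKO tumor cells of set 1 (0.0903%) and in all 6 comparisons of set 2 (1.45% to 2.13%). Leaving out libraries whose Wwox goes against the label gave 0 in all 3 comparisons of set 1 (0.0833%, 0.319% and 0.778%), and whose Trp53 does, 0 in DKO BMT (1.78%), with 1 or 2 libraries left in the group, too few to speak of stability. That Wwox setting leaves no DKO tumor library in set 2 and was not run there.

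The percent of all genes called is not given for libraries left out 1 at a time. The counts alone therefore do not separate a change of the members from a change over all genes. Leaving out 1 library at a time gave 1 to 16 in DKO yBM, 1 to 7 in DKO BMT and 0 to 21 in DKO tumor cells of set 1. In set 2 it gave 6 to 18 in SKO yBM, 18 to 23 in DKO yBM, 5 to 14 in SKO BMT, 7 to 31 in DKO BMT, 0 to 17 in SKO tumor and 26 to 32 in DKO tumor cells. The count moved by over 1.5 times for DKO yBM of set 1 without DKO yBM 1 (1), 3 (3), 4 (4), 5 (3) or 6 (2) or control BM 1 (16), 2 (1) or 4 (1). It did so for DKO BMT of set 1 without DKO BMT 3 (1) or control BM 1 (7) or 4 (1), and for DKO tumor of set 1 without control BM 1 (21), 3 (2) or 4 (0), or DKO tumor 1 (3), 2 (20) or 3 (0). In set 2 it did so for SKO yBM without SKO yBM 3 (6) or control BM 1 (9), 2 (16) or 3 (17), for SKO BMT without SKO BMT 1 (5) or control BM 1 (5) or 2 (7), for DKO BMT without DKO BMT 1 (7), 2 (9) or 3 (31) or control BM 1 (8) or 2 (9), and for SKO tumor without SKO tumor 1 (0) or 2 (17) or control BM 1 (2), 2 (5) or 3 (7).

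With the replicate number as a block, 0 members were called in DKO yBM, DKO BMT and DKO tumor cells against control BM of set 1 (0.139%, 0.299% and 0.0694% of all genes), where a shared number joins mice of different genotypes. The block changed no call in the comparisons without control BM, including DKO tumor against DKO BMT of set 1 and DKO BMT against SKO BMT, where 0 members were called with and without it. It could not be fitted in set 2 against control BM, whose columns carry no sample number, nor between ages.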
